A study of Drosophila melanogaster with 4 samples.

Results

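The genes described here are 10 Drosophila melanogaster cell death genes, named for their known functions and found on the arrays through the annotation ID printed for each probe. They are the IAP antagonists rpr (CG4319), hid (CG5123), grim (CG4345) and skl (CG13701), the initiator caspase Dronc (CG8091), the caspases Drice (CG7788), Dcp-1 (CG5370), Decay (CG14902) and Damm (CG18188), and Diap1 (CG12284), an inhibitor of apoptosis protein (IAP). They are 10 of 13059 genes that could be named on the arrays, and had 15 of the 19482 named probes. Whole embryos labelled as null for the 8-miR cluster, microRNA genes that lie close together on 2R, were compared with w1118 embryos in total RNA. Both genotypes are labelled as having the w1118 background, a white-eyed laboratory strain, and both were 6 to 8 h after egg laying: flies laid for 2 h and embryos were then aged for 6 h at 25 degrees C. Other label fields call the mutant a miR-8 cluster null, or homozygous for ectopic mir-3 expression, so the labels conflict on the genotype. How many embryos made up an extract is not given in the sources used here. Each of 3 biological replicates put 1 extract of each genotype on a 2-colour Agilent array, and a dye-swap array repeated replicate 1, which makes 4 arrays.

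In flies, dying cells switch on rpr, hid, grim and skl, whose products share a short motif at the amino end with which they bind Diap1. Diap1 otherwise holds the caspases in check, Dronc foremost. Once freed, Dronc, helped by the adapter Dark, cleaves effector caspases such as Drice and Dcp-1, which take the cell apart. Much of the control lies in transcription of the 4 antagonists, while caspases are made as inactive precursors and are controlled mostly after translation, so their mRNA levels are no measure of their activity. Developmental cell death begins in embryos near the age studied here. The mir-6 genes, taken here to lie in the cluster labelled as null, are known in flies as repressors of these antagonists. Their loss was not checked, and the labels conflict on the genotype. The ratios below are of mRNA, so a change in protein alone would not be seen. Repression of the antagonists by mir-6 was not tested.

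All values below are log2 ratios of null over w1118, so that a negative value is a lower signal in the null, with the SD over 3 replicates (the 2 arrays of replicate 1 averaged first). A gene is represented by its brightest probe above background, and calls are limma's, adjusted by Benjamini-Hochberg over 9737 genes, at 0.05. The p-values rest on the spread of 3 extract pairs, moderated by limma over all genes. The null was labelled with Cy3 on the 3 unswapped arrays and with Cy5 on the dye-swap array. Replicates 2 and 3 have no swap, so in them a dye effect particular to a gene cannot be told apart from genotype. The dye-swap array stood somewhat apart: its ratios correlated with those of the others at Pearson's r of 0.824 to 0.883 across probes, against 0.941 to 0.958 among the 3 unswapped arrays (probes are not independent replicates). Between 56.7% and 65.8% of gene spots were well above background in each channel. Every direction given depends on the labelled dyes, and a deletion check on the cluster itself was not analysed here.

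All 15 probes passed the filter on dim probes and all 10 genes were tested. The caspase gene Damm rose, by 1.57-fold, and 4 genes fell: Dronc (1.47-fold), Decay (1.38-fold), skl (1.36-fold) and Diap1 (1.17-fold). The antagonists rpr, hid and grim and the effector caspases Drice and Dcp-1 did not pass. Of all genes tested 54.7% were called, 28.1% higher and 26.6% lower, so 5 calls among 10 genes is a share close to the background and no result about the group. All 4 arrays had 1 sign in 6 of the 10 genes, beside 59.5% of all genes tested, so this share too is close to the background. None of the 10 reached 2-fold in these ratios (0 of 10), beside 3.73% of all genes called at that size. This share too is close to the background, and Decay gave -1.02 with the scanner's processed signals. The group's median ratio was -0.14, with a range of -0.55 to 0.65, beside a median of 0.01 over all genes. Its median absolute ratio was 0.21, beside 0.17 over all genes. In whole embryos, fewer cells of a type and less RNA per cell cannot be told apart.

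**Figure D1:**
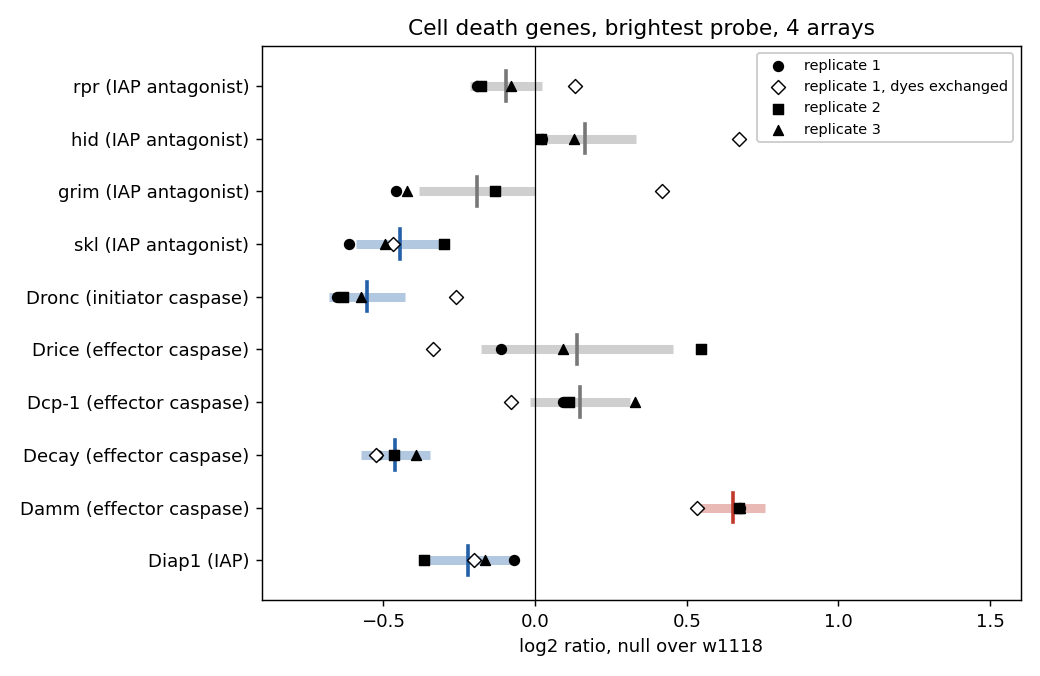
Log2 ratio of null over w1118 (horizontal axis) of the 10 cell death genes by their brightest probe. Symbols are the 4 arrays (open diamond, replicate 1 with exchanged dyes), vertical ticks the mean of 3 replicates and bars limma's 95% interval; red marks a gene called higher, blue lower and grey not called. Damm lies at 0.53 to 0.68 and hid above 0 on every array, and skl, Dronc, Decay and Diap1 lie below 0 on every array. The open diamond falls on the other side of 0 from the remaining arrays in rpr, grim and Dcp-1.

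Among the IAP antagonists, skl (sickle) was the 1 gene that passed, and it was lower in the null. Its brightest probe gave -0.61 in replicate 1, -0.47 on the dye-swap array of the same extracts, -0.30 in replicate 2 and -0.50 in replicate 3. All 4 arrays were thus negative, with a mean of -0.45 ± 0.13 (95% interval -0.59 to -0.30, limma adjusted p = 0.00114). The normalized signal on a linear scale was 1707 to 1932 in the null and 2162 to 2798 in w1118, so the genotypes did not overlap. The share of all genes without such overlap is not given here, so a lack of overlap is read only for the gene named. The second probe of skl, read in the same way, gave -0.51, -0.52, -0.61 and -0.45, a mean of -0.53 ± 0.08 (limma over all kept probes, adjusted p = 3.00e-04). The 2 arrays of slide 1 gave -0.54 for skl and those of slide 2 -0.40.

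For hid, the antagonist with a long regulatory 3' end and the best known target of survival signals in flies, the 2 probes rested on the arrays in different ways. The brighter probe was near 0 on the unswapped arrays, at 0.02, 0.02 and 0.13 in replicates 1 to 3, and high on the dye-swap array alone, at 0.67. Its mean of 0.17 ± 0.17 did not pass (95% interval -0.0011 to 0.33, limma adjusted p = 0.0837). The dimmer probe was positive and even on all arrays, at 0.21, 0.18 and 0.21 in replicates 1 to 3 and 0.24 on the dye-swap array. Its mean of 0.20 ± 0.02, a 1.15-fold difference, passed over all kept probes (limma adjusted p = 0.0106), of which 50.3% passed, and the call was lost without replicate 3 (limma adjusted p = 0.0813). With the mean of both probes hid was called higher at 0.18 (limma adjusted p = 0.019). Slide 1 gave 0.35 and slide 2 gave 0.07 for the brighter probe. The difference between the 2 arrays of replicate 1, 0.65 for the brighter probe, was larger than in 99.1% of kept probes, and for the dimmer probe it was 0.04.

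The ratio of grim by its brighter probe differed most between the 2 arrays of replicate 1. With 1 dye-swap array, an effect of dye and one of that array cannot be told apart. Its brighter probe gave -0.46, -0.13 and -0.42 in replicates 1 to 3 but 0.42 on the dye-swap array, a mean of -0.19 ± 0.21 that did not pass (95% interval -0.38 to -0.0013, limma adjusted p = 0.0807). The 2 arrays of replicate 1 thus differed by 0.88 on the same extracts, more than in 99.8% of kept probes. The signals of the genotypes overlapped, at 478 to 611 in the null and 457 to 672 in w1118. The dimmer probe of grim gave -0.25, -0.01 and -0.01 in replicates 1 to 3 and 0.03 on the dye-swap array, a mean of -0.05 ± 0.06 (limma over all kept probes, adjusted p = 0.465). With replicate 1 taken from its unswapped array alone grim was called lower at -0.34 (limma adjusted p = 0.00707), and with a dye term over the 4 arrays the ratio was 0.039. For this gene a direction therefore depended on how the dye swap entered.

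The founding gene of the group, rpr (reaper), had 1 probe, which gave -0.19, -0.18 and -0.08 in replicates 1 to 3 and 0.13 on the dye-swap array. The mean of -0.10 ± 0.08 did not pass (limma adjusted p = 0.141). The 95% interval, -0.21 to 0.02, corresponds to folds of 0.862 to 1.02. Its signals overlapped, at 3322 to 4343 in the null and 3510 to 4087 in w1118. It was called lower, at -0.15, with replicate 1 from its unswapped array alone (limma adjusted p = 0.0163). Slide 1 gave -0.03 and slide 2 gave -0.13.

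**Figure D2:**
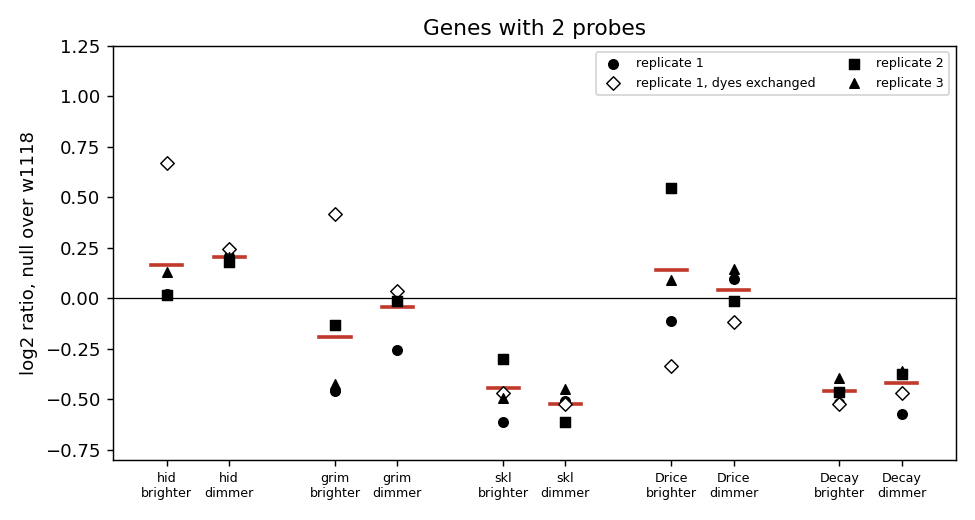
Log2 ratio of null over w1118 (vertical axis) by probe for the 5 genes with 2 probes, the brighter one first. Symbols are the 4 arrays (open diamond, replicate 1 with exchanged dyes) and red lines the mean of 3 replicates. Both probes lie below 0 on every array in skl and Decay, the dimmer hid probe stays within 0.18 to 0.24, and the brighter grim and Drice probes spread over both sides of 0.

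Among the caspases, Dronc, the initiator that the apoptosome activates, was lower in the null on all arrays. Its 1 probe gave -0.65, -0.63 and -0.57 in replicates 1 to 3 and -0.26 on the dye-swap array. The mean was -0.55 ± 0.09 (95% interval -0.68 to -0.43, limma adjusted p = 2.33e-04), with signals of 1726 to 2215 in the null and 2566 to 2965 in w1118. The genotypes did not overlap, although the 2 arrays of replicate 1 differed by 0.39, more than in 91.3% of kept probes. Slide 1 gave -0.46 and slide 2 gave -0.60.

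The effector caspases that carry out most developmental cell death in flies, Drice and Dcp-1, did not pass. Drice was inconsistent between replicates by its brighter probe, at -0.11, 0.55 and 0.09 in replicates 1 to 3 and -0.33 on the dye-swap array. The mean of 0.14 ± 0.39 had the largest SD of the 10 genes (95% interval -0.18 to 0.46, limma adjusted p = 0.406), and the slides had opposite signs, -0.22 and 0.32. Its dimmer probe gave 0.10, -0.01 and 0.15 in replicates 1 to 3 and -0.12 on the dye-swap array, a mean of 0.04 ± 0.09 (limma over all kept probes, adjusted p = 0.552). With the scanner's processed signals Drice was called the other way, at -0.23 (limma adjusted p = 0.0137), and without replicate 2 the mean was -0.066, so no direction can be given. The single Dcp-1 probe gave 0.09, 0.11 and 0.33 in replicates 1 to 3 and -0.08 on the dye-swap array. Its mean was 0.15 ± 0.17 (95% interval -0.02 to 0.31, limma adjusted p = 0.109), with 0.0055 on slide 1 and 0.22 on slide 2.

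Decay and Damm, short caspases grouped with the effectors by sequence and less studied than the others, moved in opposite directions. Decay was lower in the null by both probes. The brighter gave -0.52, -0.47 and -0.39 in replicates 1 to 3 and -0.52 on the dye-swap array, a mean of -0.46 ± 0.06 (95% interval -0.57 to -0.35, limma adjusted p = 3.64e-04). Its signals did not overlap, at 99.6 to 105 in the null and 138 to 146 in w1118. The dimmer probe gave -0.57, -0.38 and -0.36 in replicates 1 to 3 and -0.47 on the dye-swap array, a mean of -0.42 ± 0.09 (limma over all kept probes, adjusted p = 9.27e-04). It was well above background on 3 of the 4 arrays in the null. These signals are low, and the offset of 50 added before taking logs pulls such ratios towards 0: without the offset Decay gave -0.80 and with the scanner's processed signals -1.02.

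Damm was the 1 gene of the 10 that rose. Its probe gave 0.68, 0.67 and 0.68 in replicates 1 to 3 and 0.53 on the dye-swap array, a mean of 0.65 ± 0.04 (95% interval 0.54 to 0.76, limma adjusted p = 6.21e-05). This was the smallest SD of the 10 genes, and the ratio was higher than that of 95.7% of all genes tested. Its signal was 243 to 271 in the null and 152 to 172 in w1118, without overlap. Damm too is dim, and without the offset its ratio was 0.89. Damm and Dcp-1 lie on 2R, the arm that carries the deleted cluster, Drice and Decay on 3R and the other 6 genes on 3L.

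Diap1, the IAP that all 4 antagonists bind, was slightly lower in the null by its 1 probe. The ratios were -0.07, -0.37 and -0.17 in replicates 1 to 3 and -0.20 on the dye-swap array, all negative. The mean was -0.22 ± 0.12 (95% interval -0.36 to -0.08, limma adjusted p = 0.0187), the weakest of the 5 calls. It was lost without replicate 2 (-0.15, limma adjusted p = 0.140) and without replicate 3 (-0.25, limma adjusted p = 0.0538). Signals of the genotypes overlapped between arrays, at 27716 to 34705 in the null and 31087 to 39948 in w1118, while within each array the null was lower. Slide 1 gave -0.14 and slide 2 gave -0.27.

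**Figure D3:**
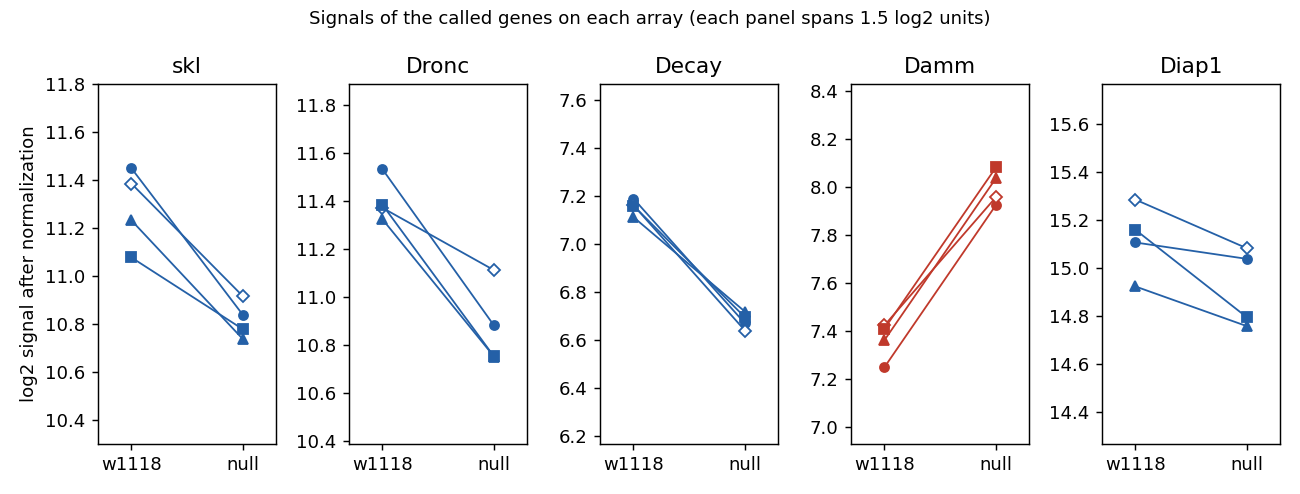
Normalized log2 signal (vertical axis) of the 5 called genes in w1118 and in the null, with a line for each of the 4 arrays (open diamond, replicate 1 with exchanged dyes). Each panel has its own range, of equal height, so levels are not comparable between genes. Every line falls for skl, Dronc, Decay and Diap1 and every line rises for Damm. The 2 genotypes overlap in height for Diap1. These 5 genes were picked by their call, so a lack of overlap in the others is no result about the group.

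The ratios were recomputed under 18 distinct alternatives of background correction, normalization, filter, probe summary, dye swap, test and replicates, 17 of which carry a test. A further 2 repeated one of these and are not counted: slide 2 alone holds the same samples as leaving out replicate 1, and the authors' matrix holds the processed ratios. Dronc, Decay and Damm passed in 17 of 17, skl in 16 and Diap1 in 14, each with 1 sign throughout. Of the genes that had not passed, hid and grim did so in 4 of 17, Dcp-1 in 3, and Drice and rpr in 1 each. The sign of hid and Dcp-1 was positive in all 18, that of rpr negative in all 18 and that of grim negative in 17, while Drice was positive in 14 and negative in 4.

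**Figure D4:**
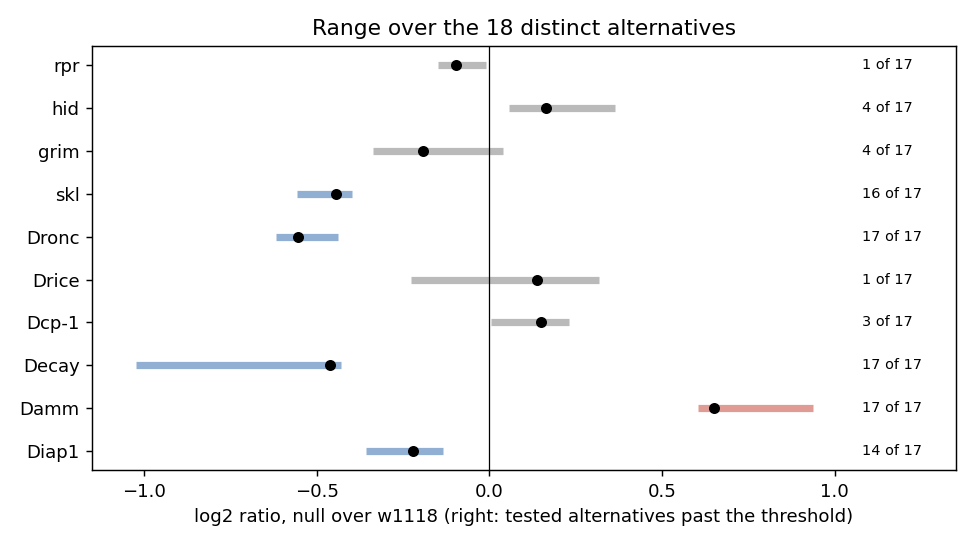
Range of the log2 ratio of null over w1118 (horizontal axis) over the 18 distinct alternatives, with a black point for the value reported. Red marks a gene called higher, blue lower and grey not called, and the numbers at the right give the tested alternatives in which the gene passed. The range of Decay reaches down to -1.02 and that of Drice covers both sides of 0.

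Around these genes, 7 lists of related pathways were measured: 84 of 87 listed genes were tested, of which 15 rose, 26 fell and 43 did not pass. That is 48.8% called beside 54.7% of all genes, with a median ratio of -0.02. Of the 41 called genes, the dye-swap array gave 9 the other sign.

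Among other caspases, the apoptosome and the Bcl-2 family, 2 of 9 rose and 2 fell, all by little (range -0.21 to 0.24), and both lower calls and that of Dredd were lost without replicate 3. The immune caspase Dredd rose at 0.21 ± 0.03 (limma adjusted p = 0.00692) and the long-prodomain caspase Strica fell at -0.21 ± 0.08 (limma adjusted p = 0.0132). The translation factor gene eIF3m, listed as Tango7 for its part in Dronc activation, rose at 0.24 ± 0.06. Dark, the adapter that activates Dronc, gave 0.05 ± 0.07 by its brightest probe and -0.37 to 0.14 by 3 others, and did not pass.

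Among IAP regulators and other IAPs, 2 of 10 fell and 8 did not pass. By brightest probes, the largest difference of all the pathway genes was here. The gene dnr1, a RING finger gene known in flies as a restraint on Dredd, fell at -1.55 ± 0.02 (95% interval -1.66 to -1.45, limma adjusted p = 1.39e-06). It had 1 probe, above background on all 4 arrays in both genotypes, which gave -1.44 on the dye-swap array. Bruce, a giant IAP-type ubiquitin enzyme, fell at -0.13 ± 0.04 (limma adjusted p = 0.0420), a call that held in 10 of 17 alternatives and was lost without replicate 2 or 3, and Diap2 gave 0.13 ± 0.09 and did not pass.

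Stress and death signalling genes had 1 of 15 higher and 3 lower. Without replicate 1 there were 3 higher and 4 lower, and without replicate 3 there was 1 lower, with the call of puc among those lost. The ATM kinase gene tefu, which responds to DNA breaks, rose at 0.33 ± 0.02, with 0.41 by its other probe. The TNF receptor gene grnd fell at -0.42 ± 0.14 and the JNK phosphatase gene puc at -0.28 ± 0.12, and both gave smaller values on the dye-swap array, -0.12 and -0.07. p53 gave 0.01 ± 0.08 and did not pass. The probes of egr disagreed: its brightest gave -0.001 ± 0.09 and did not pass, while its 2 other kept probes gave 0.06 and 1.49.

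Of 11 tested engulfment genes 3 rose and 5 fell, of which 2 lower calls were left without replicate 2 and 2 without replicate 3. The scavenger receptor gene crq fell most, at -0.78 ± 0.07 (limma adjusted p = 4.19e-05), with -0.50 and -0.26 by its other probes. NimC4, an engulfment receptor gene, rose at 0.55 ± 0.19 (limma adjusted p = 0.00130) and Ced-12, a regulator of the cytoskeleton during uptake, at 0.33 ± 0.02. Hemocytes, the blood cells that take up dying cells, had 7 of 10 markers tested, with 2 higher, 2 lower (1 lower without any 1 of the replicates) and a median of 0.04. Pxn gave 1.41 by its brightest probe and 0.29 and 0.58 by its others, and PPO1 gave 1.41. Of the other bright markers, PPO2 (-0.02) and gcm (0.08) did not pass and ush fell at -0.15. Hml, above background on 0 of 4 arrays in the null and 3 in w1118, fell at -0.44 ± 0.04. The summed signal of the list was 17975 to 19085 in the null and 15078 to 16410 in w1118. That difference came mostly from PPO1 (mean log2 signal 12.02 in the null, 10.61 in w1118) and Pxn (9.80 and 8.39). The sum therefore does not show a rise of the list as a whole. NimC1, eater and He did not pass the filter on dim probes. The part of hemocytes in the engulfment values was not tested.

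Of 7 tested nuclease and DNA breakdown genes 2 rose and 2 fell. Drep1, the gene of the inhibitor that keeps the caspase-activated nuclease inactive, fell at -0.72 ± 0.12 (limma adjusted p = 1.10e-04), and Parp1, a caspase substrate that responds to DNA breaks, at -0.60 ± 0.01. DNaseII, which digests DNA of engulfed cells, rose at 0.32 ± 0.08. Drep4, the nuclease itself, gave 0.10 ± 0.06 and did not pass.

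In the Hippo pathway, which in flies controls Diap1 transcription through the coactivator Yorkie, 5 of 11 genes rose and 3 fell, with a median of 0.12. The cadherin gene ds rose at 0.78 ± 0.07 (limma adjusted p = 4.19e-05), ex at 0.42 ± 0.09 and the kinase gene wts at 0.37 ± 0.19, the last with -0.08 on the dye-swap array. The Yorkie gene yki gave 0.12 ± 0.08 and did not pass. Autophagy genes had 9 of 21 lower and 2 higher, with a median of -0.13. Vps15 (-0.60 ± 0.11), Atg17 (-0.49 ± 0.02) and Pi3K59F, the lipid kinase gene listed as Vps34 (-0.48 ± 0.05), fell most.

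**Figure D5:**
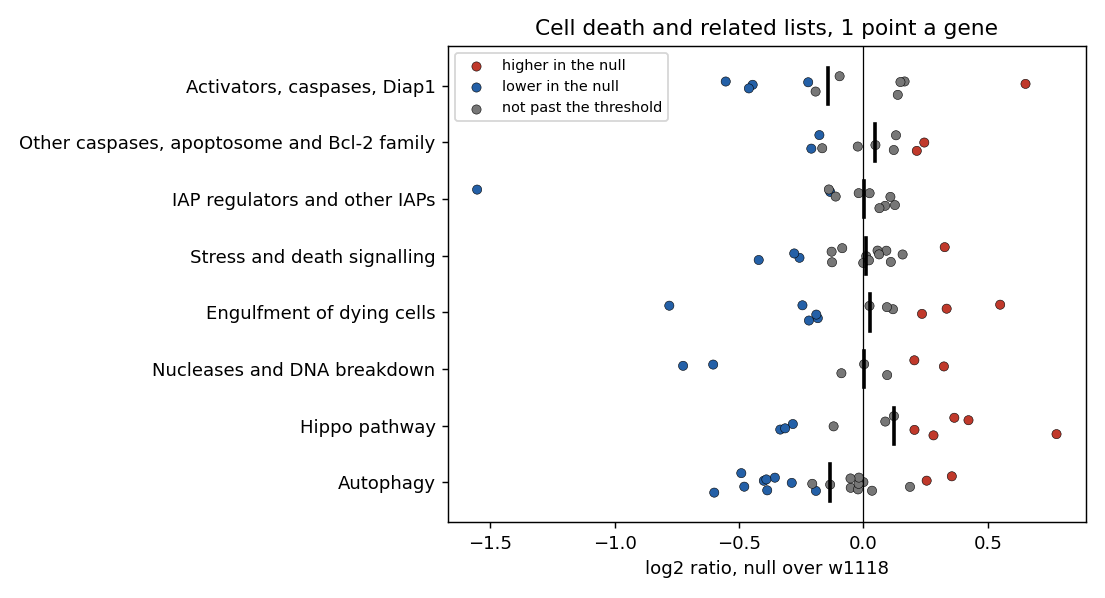
Log2 ratio of null over w1118 (horizontal axis) of the 10 cell death genes and of 7 related lists, 1 point for each tested gene, jittered vertically. Colours give the call and black bars the median. Points of each list lie on both sides of 0, and dnr1 stands alone at -1.55.

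Markers of tissues and stages were read beside these values. Muscle markers were lower in 6 of 6 (median -0.68), with a summed signal of 5722 to 6002 in the null and 8992 to 9650 in w1118. Maternal follicle cell markers had 7 of 10 lower and 1 higher (median -0.50; 1323 to 1377 in the null, 2376 to 2567 in w1118). Late cuticle stage markers had 4 of 7 lower and 1 higher (median -0.22), early zygotic stage markers 2 of 4 lower (median -0.19). Neuron and glia markers had 3 of 7 lower and 2 higher, amnioserosa markers 3 of 7 lower and 1 higher, and epidermis markers 1 of 3 higher. Kr, which is on the amnioserosa list, was the marker that rose most, at 3.46 ± 0.17, and the eggshell gene Vm26Aa, on the follicle cell list, fell at -2.05 ± 0.06. The part of tissue makeup and of embryo age in the cell death ratios was not tested.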

How the data were processed

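Spot values come from Agilent Feature Extraction 10.1.1.1, per the file headers. The deposited intensity columns hold the median spot and local background brightness in each channel, not normalized. A processed intensity, background-subtracted and dye-normalized, and its log10 ratio of red over green are also deposited. The authors' series matrix holds log2 ratios of unstated direction. Set against the scanner files they ran as w1118 over null, with a slope of 1.00 and column medians of -0.137, 0.071, 0.128 and -0.041, so no further centring was seen, and they were turned.

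In limma 3.58.1 (R 4.3.3), the background of median signals was corrected by normexp with an offset of 50. Arrays were each normalized by loess, in which control spots and flagged outliers had weight 0. Ratios were turned to null over w1118 by the labelled dyes. A probe was kept if well above background in 1 genotype in at least 2 of 3 replicates, both arrays for replicate 1. In all 19753 of 32162 probes were kept, 19482 of the 32162 were named for 13059 genes through the Release 6 RefSeq table, and 9737 genes were tested with lmFit and eBayes. That table's build is later than the array's, so coordinates are left out. Signals were set to a common scale by Aquantile. Slides were read from the headers, and slide 1 held replicate 1 and its swap, slide 2 replicates 2 and 3. The pipeline was also run on simulated data, whose dye effect varied with intensity only. That run therefore has no bearing on dye effects particular to a gene. Precision is limited by the number of extract pairs, 3, since the dye-swap array repeats replicate 1.

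The genes and lists were chosen with earlier results of these data known. Named were all 10 genes with each kept probe, and from each pathway list up to 3 called genes with the largest ratios of 1 sign in all replicates, or any beyond 2-fold, and up to 2 from each marker list. Dark, Diap2, p53, Drep4 and yki were named for their roles, and egr for its disagreeing probes, after their values were seen. No set test was made.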

Additional observations from a re-analysis of the deposited data

Results flagged for a closer look

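In 3 of the 15 probes the value of 1 array stood apart, where chance gives about 1 in 20. The dye-swap array gave 0.67 for the brighter hid probe, against 0.02 to 0.13 on the other arrays. Replicate 1 gave -0.25 for the dimmer grim probe, against -0.01 to 0.03. The dye-swap array gave 0.53 for Damm, against 0.67 to 0.68, a small gap that stands out only because the other arrays lay so close together.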

How the results depend on the processing

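Of 180 recomputed ratios of the 10 genes under distinct alternatives, 157 kept their sign and side of the threshold or stayed within 1 SD. With replicate 1 from its unswapped array alone, rpr (-0.15), grim (-0.34) and Dcp-1 (0.18) were called. With a dye term over 4 arrays, hid was called (0.36), while grim (0.039) and Drice (-0.080) changed sign, and the dimmer Drice probe gave -0.021. That fit takes the 4 arrays as independent, though 2 share extracts. In it the 1 dye-swap array weighs as much as the unswapped arrays together. Array weights called grim (-0.29) and Dcp-1 (0.23), and slide 2 alone, the same samples as leaving out replicate 1, grim (-0.28) and Dcp-1 (0.22). With the mean of kept probes hid was called (0.18), as with slide as a block (0.21). On slide 1 alone the values moved to 0.35 for hid, -0.46 for Dronc and 0.61 for Damm. Processed signals, and the authors' matrix that holds the same ratios, turned Drice to -0.23. With replicate 1 from its dye-swap array the dimmer grim probe gave 0.0027. Without moderation the values of skl (-0.45) and Diap1 (-0.22) were the same and their calls were lost. The ordinary t-test gave an adjusted p of 0.0787 for skl and 0.163 for Diap1.

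Leaving out each replicate in turn, ratios ran from 0.074 to 0.24 for hid, -0.28 to -0.077 for grim, -0.066 to 0.32 for Drice, 0.058 to 0.22 for Dcp-1 and -0.27 to -0.15 for Diap1. Calls were gained by hid without replicate 2, grim without replicate 1 or 2 and Dcp-1 without replicate 1. The dimmer Drice probe ran from -0.012 (without replicate 3) to 0.068. Genes called higher ran from 1768 to 3003 and lower from 1713 to 2846, both fewest without replicate 3, against 2734 and 2593. Of the 10 genes 1 to 2 were called higher and 3 to 5 lower, and of the pathway genes 9 to 21 higher and 18 to 30 lower. Without replicate 3, Hippo genes called higher fell to 3, lower early zygotic markers to 1 and lower late cuticle markers to 2, and the higher autophagy and follicle cell calls were lost. The higher late cuticle call was lost without replicate 2 or 3. Higher neuron and glia calls fell to 1 without replicate 2 or 3.

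Over all genes 1747 were higher and 1681 lower with replicate 1 from its dye-swap array, and 1062 and 1023 without moderation. Of the 10 genes, 2 were called higher with the mean of kept probes, replicate 1 from the unswapped array, a dye term, array weights, slide as a block or slide 2 alone, and 2 were called lower without moderation. Pathway genes called higher numbered 9 with the dye-swap array, 23 with the unswapped array, 6 without moderation and 24 with array weights, and those lower 15 with the dye-swap array and 8 without moderation. The cause of these shifts was not tested. No paired analysis was possible beyond the design itself because each array already pairs the genotypes. Dim genes such as Decay and Damm are limited by signal over background.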

Other observations

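The antagonists hid, grim, rpr and skl lie in that order on 3L. From hid to skl the RefSeq annotation holds 17 genes, 8 of them protein-coding, and all 8 had a probe. Of these 5 were tested, the 4 antagonists and CheA75a, which lies between hid and grim. CheA75a was higher in the null, at 0.63 ± 0.13 (limma adjusted p = 2.47e-04), and was dim, above background on 3 of the 4 arrays in w1118, while skl at the other end was lower, so the tested genes of this stretch did not share a direction.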
